A study of Mus musculus with 4 samples.

Results

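The 10 genes described here encode transcription factors, or a partner of them, that maintain haematopoietic stem cells: Hlf, Mecom, Gata2, Tal1, Erg, Fli1, Lmo2, Etv6, Runx1 and Gfi1b. They were chosen by name as known regulators of these cells, and all 10 were found among 21883 protein-coding genes of the mouse annotation. The measurements were CUT&Tag peak lists, in which an antibody, here against Ruvbl2, directs a transposase to chromatin and MACS2 calls places where reads pile up. LSC libraries, n = 2, came from leukaemia stem cells of Nup214fl/+ mice with MLL-AF9-driven leukaemia, sorted for CD34, CD16/32 and c-Kit in the absence of Sca-1 and of lineage markers. HSC libraries, n = 2, came from haematopoietic stem cells of Nup214fl/+ mice, sorted as CD150-positive, CD48-negative LSK cells. All 4 libraries therefore carried a floxed allele of Nup214, and the labels name no Cre, no age, and no separate animals. The LSC gate also describes normal granulocyte-monocyte progenitors, so leukaemia and maturation cannot be told apart. Differences between libraries measure only the spread between these samples, which may be technical.

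Ruvbl2 is an ATPase that works with Ruvbl1 inside the INO80, SRCAP and TIP60 chromatin remodelling complexes. Stem cell transcription factors are known to bind together at shared enhancers, many of them inside introns or far from the start of the gene they act on. Products of several of the 10 genes bind each other's enhancers in blood progenitors, and rearrangements of Runx1, Erg, Etv6, Tal1, Lmo2 and Mecom are recurrent in human leukaemia.

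The deposited lists held 216077 and 210541 peaks in LSC replicates 1 and 2, against 161655 and 286107 in HSC replicates 1 and 2. To compare lists of equal length, a peak was called listed when it was among the 20000 with the largest −log10 p of its library, and its rank counts from the strongest. The weakest listed peak had a fold over background of 28.4 and 18.2 in LSC replicates 1 and 2, against 22.7 and 12.7 in HSC replicates 1 and 2, so folds were read within a library only. Replicate numbers split the libraries across the cell types. Listed peaks at ends of coding genes made up 10.8% and 25.7% in LSC replicates 1 and 2, against 10.3% and 24.9% in HSC replicates 1 and 2. Y chromosome peaks numbered 94.2 and 1.24 per 10000 peaks in LSC replicates 1 and 2, against 91.8 and 0.561 in HSC replicates 1 and 2. What separates the replicate numbers was not tested. Read depth is not in the peak lists. Of 7 genes for the surface markers of the gates, 0 and 2 had a listed peak at a gene end in LSC replicates 1 and 2, against 1 and 1 in HSC replicates 1 and 2. Among all coding genes, 11% and 25.5% had one in LSC replicates 1 and 2, against 10.6% and 25.1% in HSC replicates 1 and 2. Kit, Slamf1, Ly6a, Cd48 and Fcgr2b had none in any library. Fcgr3, of the LSC gate, was listed at ranks 3294 and 466 in HSC replicates 1 and 2. In LSC it was listed in replicate 2, at 787, and unlisted in replicate 1, at 192543. Cd34 was listed in LSC replicate 2 only, at 12390. Binding of a chromatin factor is not expression, so the sorted cell types could not be checked from these lists.

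Ruvbl2 peaks lay inside the bodies of these genes more densely than over other coding genes, whereas their ends were not listed more often than other gene ends in 3 of the 4 libraries. The 10 loci, each the gene with 50 kb on either side, spanned 2.49 Mb. They held 42 and 47 listed peaks in LSC replicates 1 and 2, and 33 and 41 in HSC replicates 1 and 2. That is 16.9 and 18.9 peaks per Mb in the LSC libraries and 13.3 and 16.5 in the HSC libraries, where the whole genome held 7.35 per Mb in each. The density over the genome was therefore 2.30 and 2.57 times in LSC and 1.81 and 2.25 times in HSC. Coding loci in general were also denser than the genome. Bodies of all coding genes held 8.40 to 9.37 listed summits per Mb by library, and their flanks 11.8 to 18.1. The ratio to whole loci of all coding genes was not computed. LSC libraries averaged 44.5 ± 3.5 listed peaks and HSC libraries 37.0 ± 5.7 (SD, n = 2 each), a difference of 7.5. The groups did not overlap, but 2 against 2 allows only 6 labellings and the exact two-sided permutation p was 0.333, the smallest this design can give. Within replicate numbers the LSC minus HSC difference was 9 in replicate 1 and 6 in replicate 2. With lists of equal length the density ratio is the same count divided by a constant, so its averages of 2.44 ± 0.19 in LSC and 2.03 ± 0.31 in HSC are the same comparison on another scale. With every deposited peak the counts overlapped, at 358 and 339 in LSC against 231 and 373 in HSC.

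Most listed peaks came from the long genes. Among all 10 loci, Erg held 8 and 6 listed peaks in LSC against 6 and 10 in HSC, and Etv6 held 8 and 7 in LSC against 5 and 8 in HSC. Runx1 held 6 and 13 in LSC against 4 and 6 in HSC, Mecom 8 and 3 against 5 and 1, and Fli1 5 and 2 against 5 and 7. The shorter genes Lmo2, Gata2, Gfi1b, Tal1 and Hlf held between 0 and 5 in any library. For 9 of the 10 genes the LSC and HSC libraries overlapped or shared a value. Lmo2 was the exception, with 3 and 4 listed peaks in LSC against 2 and 2 in HSC, at an exact permutation p of 0.333. The share of all coding genes whose counts do not overlap was not computed, so this is not read as a trait of Lmo2.

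**Figure D1:**
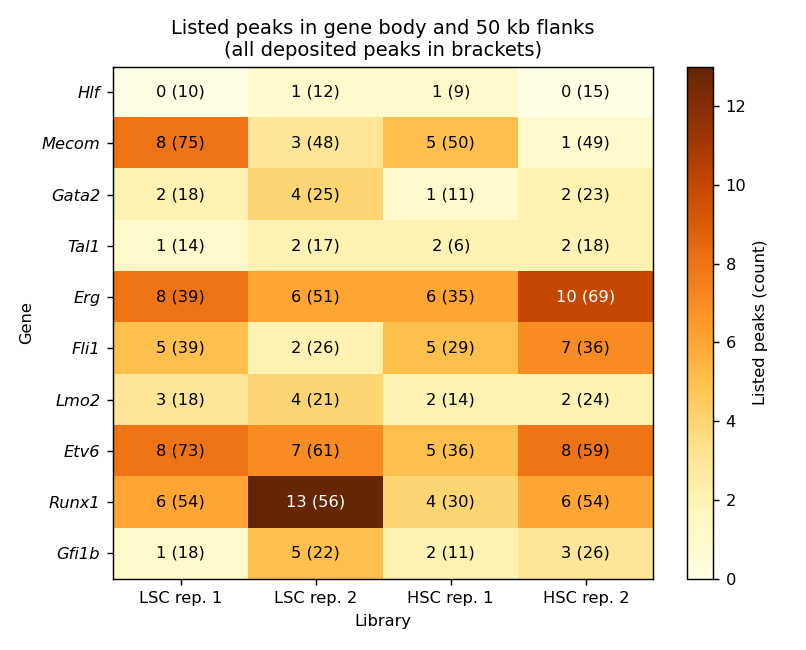
Number of listed peaks, by colour and digit, in the gene body and 50 kb flanks of each of the 10 genes (rows) in each library (columns, LSC left of HSC), with all deposited peaks in brackets. Erg, Etv6, Runx1, Mecom and Fli1 hold most of the listed peaks, up to 13 for Runx1 in LSC replicate 2.

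Few of the listed peaks lay at a gene end, and which gene it was changed from library to library. A gene end was a window of 1000 bp on either side of either annotated end. In LSC replicate 1 only Etv6 was listed at an end, 1 of 10 genes where 11% of all coding genes were listed. In LSC replicate 2 only Gfi1b was listed, 1 of 10 against 25.5% of all coding genes. HSC replicate 1 listed 0 of 10, against 10.6%, and HSC replicate 2 listed Gata2, Etv6 and Runx1, 3 of 10 against 25.1%. LSC libraries averaged 1.0 ± 0.0 listed genes and HSC libraries 1.5 ± 2.1 (SD, n = 2 each), a difference of -0.5 at an exact permutation p of 1. Within replicate numbers the difference was 1 in replicate 1 and -2 in replicate 2, so its sign depended on the library. No member was listed at an end in all 4 libraries, where 2.91% of coding genes were. None was listed in both LSC and neither HSC library (0.932% of coding genes), and none in both HSC and neither LSC library (0.873%). With peaks of any strength, 6 and 7 members had an end peak in LSC replicates 1 and 2 (47.6% and 58.8% of coding genes). HSC replicates 1 and 2 had 4 each (38.2% and 64.5%). In at least 1 library 4 members were listed at an end, against 39.9% of coding genes. Runx1 and Gfi1b were the 2 members with an end peak in all 4 libraries, a state found for 15.6% of coding genes. Tal1 and Lmo2 had an end peak of some strength in both LSC and neither HSC library, 2 of 10 members against 3.77% of coding genes, with no such peak listed.

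Start sites could be read for 8 of the 10 genes, in 14 promoter windows of 250 bases before to 50 after a start in RefSeq, build GRCm38.p6. The windows printed here are those that a Ruvbl2 peak covered in part or whole, with the Hlf window, which no peak touched, set beside them. Capitals mark 4 short motifs of the factor families these genes belong to, searched on both strands. For the GATA family, to which Gata2 belongs, the motif searched was AGATAA. The motif of the ETS family, which takes in Erg, Fli1 and Etv6, was CCGGAA. That of the RUNX family was TGTGGT, and the E-box, which Tal1 binds with its partners, was searched as CANCTG. No matches overlapped in the windows printed. 
Runx1 distal, chr16:92826025-92826324, minus strand: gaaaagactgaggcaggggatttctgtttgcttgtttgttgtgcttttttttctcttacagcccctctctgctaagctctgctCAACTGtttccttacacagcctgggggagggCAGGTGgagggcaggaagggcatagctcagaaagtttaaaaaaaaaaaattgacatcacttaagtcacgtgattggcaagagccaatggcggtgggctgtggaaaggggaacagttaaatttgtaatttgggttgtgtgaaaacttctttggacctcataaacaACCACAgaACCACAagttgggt
Runx1 proximal, chr16:92697280-92697579, minus strand: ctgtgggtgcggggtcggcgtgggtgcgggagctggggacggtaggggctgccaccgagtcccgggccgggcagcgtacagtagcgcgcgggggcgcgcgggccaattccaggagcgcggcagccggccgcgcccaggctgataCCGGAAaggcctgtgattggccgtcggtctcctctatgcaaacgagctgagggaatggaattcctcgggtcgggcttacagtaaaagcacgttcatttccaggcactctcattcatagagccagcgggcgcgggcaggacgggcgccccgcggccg
Gfi1b, chr2:28621933-28622232, minus strand: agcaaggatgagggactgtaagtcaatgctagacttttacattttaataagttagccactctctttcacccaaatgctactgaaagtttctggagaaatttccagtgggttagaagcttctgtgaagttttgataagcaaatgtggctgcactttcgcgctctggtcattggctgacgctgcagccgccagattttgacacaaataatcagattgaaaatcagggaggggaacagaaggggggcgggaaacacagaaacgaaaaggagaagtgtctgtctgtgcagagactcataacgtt
Etv6, chr6:134035450-134035749, plus strand: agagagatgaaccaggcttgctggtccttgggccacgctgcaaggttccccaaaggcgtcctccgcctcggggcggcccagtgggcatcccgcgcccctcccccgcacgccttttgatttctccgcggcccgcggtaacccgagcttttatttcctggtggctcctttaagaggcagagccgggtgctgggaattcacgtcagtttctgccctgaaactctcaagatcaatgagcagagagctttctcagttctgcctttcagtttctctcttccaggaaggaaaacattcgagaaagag
Tal1 outer, chr4:115056176-115056475, plus strand: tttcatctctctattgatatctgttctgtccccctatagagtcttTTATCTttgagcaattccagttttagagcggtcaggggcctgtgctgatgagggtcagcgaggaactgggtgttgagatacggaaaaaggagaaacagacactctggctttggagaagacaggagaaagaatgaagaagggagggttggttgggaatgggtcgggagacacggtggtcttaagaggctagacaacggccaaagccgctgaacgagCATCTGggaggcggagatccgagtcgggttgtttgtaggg
Hlf, chr11:90390868-90391167, minus strand: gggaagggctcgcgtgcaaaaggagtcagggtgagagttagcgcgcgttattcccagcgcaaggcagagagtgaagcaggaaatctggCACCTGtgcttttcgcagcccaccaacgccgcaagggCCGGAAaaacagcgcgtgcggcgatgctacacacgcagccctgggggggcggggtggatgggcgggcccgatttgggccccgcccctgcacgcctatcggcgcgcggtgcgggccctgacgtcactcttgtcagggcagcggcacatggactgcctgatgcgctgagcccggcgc
AGATAA stood in 2 of the 14 member windows and in 11.2% of all 32851 windows of the table. CCGGAA stood in 2 and in 14.9% of all, TGTGGT in 1 and in 16.8%, and CANCTG in 6 and in 51.4%. The Gfi1b and Etv6 windows held none of the 4. A motif match is a run of letters in the window and not a measured binding site. The median window of the members held 16.5 CpG dinucleotides against 7 over all windows, at a GC content of 51.3% against 52.7%.

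Runx1 encodes the DNA-binding subunit of core binding factor, required for blood stem cells to arise, and is transcribed from a distal and a proximal promoter. The gene lies at chr16:92601466-92826074 on the minus strand, with its distal start at 92826074 and its proximal start at 92697329. At the distal start, whose window holds 2 TGTGGT motifs just after the start, all 4 libraries had a peak. Their best ranks within 1000 bp were 50589 and 28164 in LSC replicates 1 and 2, and 56543 and 5886 in HSC replicates 1 and 2. Only the HSC replicate 2 peak was listed, with a fold of 17.4 and its summit 78 bp inside the gene. At the proximal start every library also had a peak, ranked 35984 and 3734 in LSC against 125011 and 38839 in HSC. Here LSC replicate 2 alone was listed, with a fold of 29.9 and a summit 990 bp upstream of the start, outside the printed window. The peak in LSC replicate 1 covered 183 bases of the proximal window and that in HSC replicate 1 covered 82. Both starts were thus marked in every list, at a listed rank in a single, different library each.

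Gfi1b encodes a zinc finger repressor of the erythroid, megakaryocytic and stem cell compartments. It lies at chr2:28609450-28621982 on the minus strand. LSC replicate 2 had a peak over its start at rank 3422, fold 30.7, with the summit 83 bp from the start and 285 of the 300 window bases covered. HSC replicate 1 had a peak there at rank 78227 that did not reach the window, and a listed peak 1.86 kb upstream of the start at rank 8941. LSC replicate 1 and HSC replicate 2 had none at the start, and their end peaks, at ranks 62704 and 64026, lay at the other end of the gene. The 4 libraries with a peak at a Gfi1b end were therefore divided between its ends. The strongest listed peak of the locus was at an end of the neighbouring gene Tsc1, at chr2:28640654-28642315, 19.5 kb upstream of Gfi1b, at rank 455 in LSC replicate 2 and 8556 in HSC replicate 2.

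Etv6 encodes an ETS family repressor needed by adult stem cells in bone marrow. Its gene lies at chr6:134035700-134270158 on the plus strand. In LSC replicates 1 and 2 a peak lay just inside the start, with summits 683 and 450 bp downstream and ranks of 23524 and 29356. In HSC replicate 2 a peak lay just outside it, with its summit 353 bp upstream, rank 7941 and a fold of 16.1. LSC replicate 2 had a further, weaker peak at almost the same upstream place, at rank 69971. HSC replicate 1 had none within 1000 bp. The listed Etv6 end peak of LSC replicate 1, at rank 4330, was at the far end of the gene, 273 bp from it. The start is shared with an end of Gm46977, so a peak there belongs to both annotations.

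Tal1, a helix-loop-helix factor that binds E-boxes with Lmo2 and Gata factors, lies at chr4:115056426-115071755 on the plus strand. Only LSC replicate 2 had peaks at its starts. The peak over the printed window ranked 98129 and covered all 300 bases, and a stronger peak, 1067 bp inside the outer start, ranked 36046. At the other end of the gene, LSC replicates 1 and 2 had peaks at ranks 149138 and 49939. No Tal1 end peak was found in the HSC libraries. Hlf, a bZIP factor whose transcript marks stem cells, lies at chr11:90336535-90390917 on the minus strand and had no peak of any strength at either end in any library, although its window holds a CCGGAA and a CANCTG match.

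Gata2, a zinc finger factor required for stem cell survival, lies at chr6:88193891-88207032 on the plus strand. HSC replicate 2 had a peak 450 bp inside its outer start, at rank 3084 with a fold of 21.3. The other 3 libraries had none there. Near the inner start at 88198664, LSC replicate 2 had 2 listed peaks, at ranks 16035 and 17354, with summits 714 bp upstream and 755 bp downstream. HSC replicate 2 had a listed peak there too, at rank 14988, with its summit at -1273 bp from that start. Both libraries of replicate 1 lacked a peak at the Gata2 starts. No peak covered the promoter windows of Mecom, Gata2 or Erg, nor the inner window of Tal1.

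Gene bodies, by contrast, carried listed peaks more densely than those of coding genes as a whole. Listed summits numbered 19.1 and 20.5 per Mb of member gene body in LSC replicates 1 and 2, against 16.4 and 17.1 in HSC replicates 1 and 2. All coding gene bodies held 9.37 and 8.40 per Mb in LSC, against 8.76 and 8.63 in HSC. The member density was thus 2.04 and 2.44 times that of all genes in LSC and 1.87 and 1.98 times in HSC. With every deposited peak the ratios were smaller, at 1.59 and 1.48 in LSC and 1.53 and 1.17 in HSC. A fixed list of 22 other blood regulators, partners or members of the same network, had 11.7 and 12.4 listed summits per Mb of body in LSC and 15.6 and 12.4 in HSC. The 10 members were denser than those 22 in each library, most narrowly in HSC replicate 1. In the flanks the members held 13.3 and 16.3 listed summits per Mb in LSC, where flanks of all coding genes held 13.0 and 17.6. HSC flanks held 9.18 and 13.3, where all coding flanks held 11.8 and 18.1. For listed peaks the flanks were thus at or below the level of other genes, apart from a small excess in LSC replicate 1. With every deposited peak the direction turned, and member flanks held 1.18 and 1.21 times the density of all coding flanks in LSC and 1.02 and 1.10 times in HSC.

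**Figure D2:**
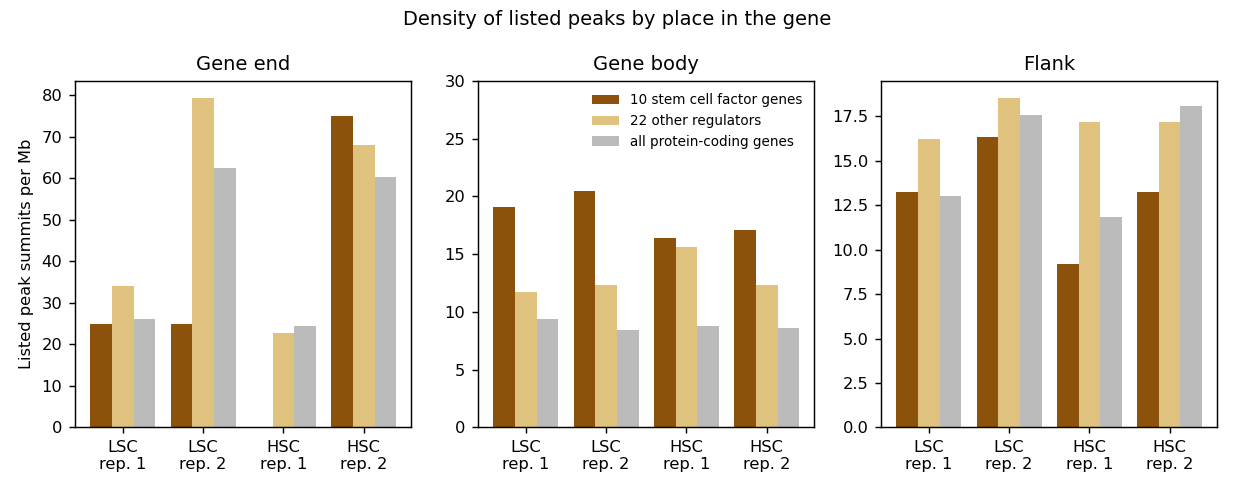
Listed peak summits per Mb (y axis, a scale per panel) at gene ends, in gene bodies and in flanks, for the 10 genes, 22 other regulators and all coding genes, by library with LSC left of HSC. The body densities of the 10 genes, 16.4 to 20.5 per Mb, lie above those of all coding genes, 8.40 to 9.37, and gene ends and flanks show no such order.

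The density was not shared evenly. The Erg body held 26.6 and 17.7 listed summits per Mb in LSC against 17.7 and 31.1 in HSC. Fli1 held 25.2 and 16.8 in LSC against 33.5 and 41.9 in HSC, Etv6 25.8 and 30.1 against 21.5 and 30.1, and Runx1 22.5 and 44.9 against 13.5 and 18.0. Mecom, the longest of the 10 at 558 kb, held only 10.8 and 5.39 in LSC against 8.99 and 1.80 in HSC, near or below the level of all coding genes. The 3 ETS factor genes Erg, Fli1 and Etv6, with Runx1, each lay above the level of all coding genes in all 4 libraries. How many coding genes of like length do so was not counted. Short gene bodies hold few peaks, and Gata2 stood at 89.8 and 180 per Mb in LSC against 0 and 89.8 in HSC. The part of gene length in this was not tested.

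Overlap between libraries was low, as it was over the genome. Merging every deposited peak that overlapped by at least 1 bp gave 950 regions in the 10 loci. Of these, 701 were found in 1 library, 176 in 2, 64 in 3 and 9 in 4. Regions found in 3 or 4 libraries made up 7.68% in the 10 loci, 3.66% in the loci of all coding genes and 2.96% in the genome. Found in all 4 were 0.947%, against 0.776% in the loci of all coding genes and 0.595% over the genome. Peaks of any strength were also denser in the 10 loci than over the genome, 1.83 and 1.78 times in LSC and 1.58 and 1.43 times in HSC, and the part of this density in the sharing was not tested. Bodies and flanks of all coding genes were denser than the genome as well. Erg held 18 of the 73 regions found in at least 3 libraries, Etv6 15, Runx1 11 and Mecom 9, and Hlf held 0. The share found in more than 1 library was 38.2% at Erg, 36.5% at Lmo2 and 33.6% at Runx1, and was lowest at Mecom with 15.1% and Hlf with 15.0%. Gene bodies held 47 of those 73 and 533 of all 950 regions, and flanks held 22 of the 73 and 388 of the 950. Gene ends held 2 of the 73 and 21 of the 950, and internal starts 2 and 8.

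**Figure D3:**
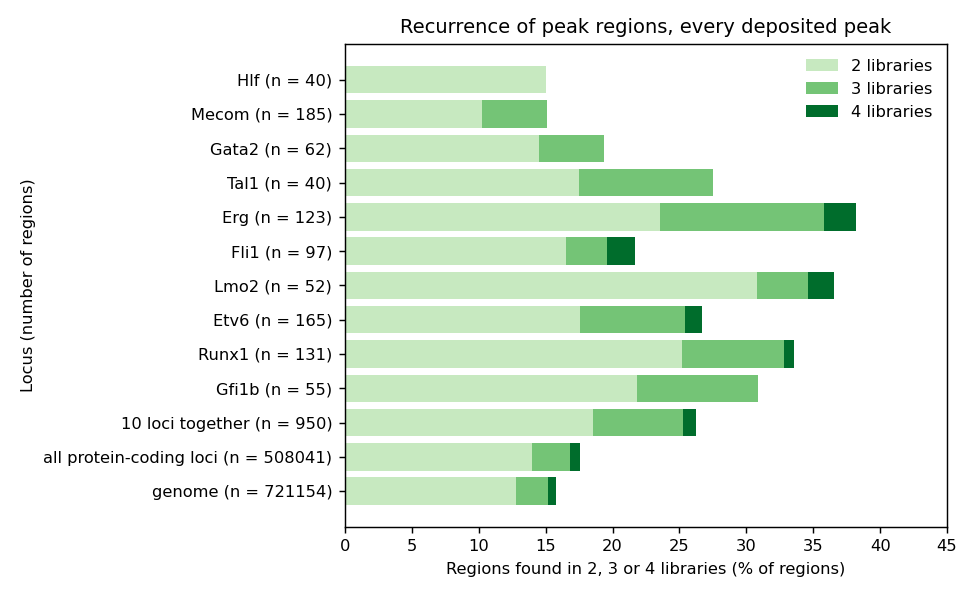
Share of regions (percent, x axis) found in 2, 3 or 4 libraries, stacked, for each of the 10 loci, for the loci together, for the loci of all coding genes and for the genome (rows). Erg, Lmo2 and Runx1 reach farthest, to 38.2%, 36.5% and 33.6%, and Mecom and Hlf least far, to 15.1% and 15.0%.

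Listed peaks of different libraries met in 17 regions of the 10 loci. Only 1 was listed in all 4 libraries, 0.105% of the 950 regions against 0.11% of all regions of the genome, and 1 more in 3. In 2 regions both LSC libraries were listed and in 1 region both HSC libraries. The listed pair shared replicate number 1 in 3 regions and replicate number 2 in 6, and in 3 regions it was an LSC and an HSC library of different numbers. For regions listed in 2 or 3 libraries the share over the genome was not computed. Their counts are therefore not read as traits of the 10 loci.

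Fli1, an ETS factor of stem cells and megakaryocytes, held the region listed in all 4. Its gene lies at chr9:32422204-32543432, and the region lies inside the gene at chr9:32507354-32510752, 34.4 kb from the end with the higher coordinate. Peaks ranked 1457 and 1185 in LSC replicates 1 and 2, with folds of 86.7 and 46.8. In HSC replicates 1 and 2 they ranked 14190 and 1377, with folds of 27.1 and 28.8. The LSC summits were at 32508818 and 32508906 and the HSC replicate 2 summit at 32508860. The listed HSC replicate 1 summit lay apart, at 32510074, close to another listed HSC replicate 2 peak with its summit at 32510057. HSC replicate 1 also had an unlisted peak at rank 35602 with its summit at 32508994, so each library had a summit within a stretch of 176 bp. A further Fli1 region, chr9:32538408-32539838, lay 4.31 kb inside the same end and ranked 66914 and 6376 in LSC against 4253 and 8737 in HSC. It was listed in 3 libraries and found in all 4. Fli1 had an end peak in HSC replicate 1 only, at rank 34101.

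Erg, the ETS factor closest to Fli1 in sequence, lies at chr16:95359169-95586600 on the minus strand with 3 annotated starts. At its outer start only LSC replicate 2 had a peak, at rank 59098, and at its middle start, 95530365, no library had any. Near the innermost start, at 95459348, the best peaks ranked 23381 in LSC replicate 1 and 233259 in HSC replicate 2, and the other libraries had none within 1000 bp. Upstream of that start, centred at -5.13 kb from it, the region chr16:95463710-95465251 was found in all 4 libraries with summits within 478 bp. It ranked 5321 and 45491 in LSC replicates 1 and 2, with folds of 57.5 and 12.7, against 7083 and 20722 in HSC replicates 1 and 2, with folds of 36.9 and 12.5. It was stronger by rank in replicate 1 than in replicate 2 of both cell types. On the other side of the start, LSC replicate 1 had its strongest member peak, at rank 176 with a fold of 155. Its summit at 95452729 lay 6619 bp inside that start. The merged region, chr16:95450907-95453464, ranked 139146 in LSC replicate 2 and 11921 in HSC replicate 2, and held no peak in HSC replicate 1. The best summits of this region were spread over 1639 bp. Farther upstream, chr16:95485114-95486235 was the region listed in both HSC libraries, at ranks 2204 and 6150. LSC replicate 2 had a peak there at 51597 and LSC replicate 1 none. A listed LSC replicate 1 peak lay just outside this region, at chr16:95486896-95487502, with rank 1754 and a fold of 83.1. Regions at chr16:95418170-95419867 and chr16:95402948-95404338 were also found in all 4, and both were weakest in LSC replicate 1, at ranks 153673 and 171788.

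**Figure D4:**
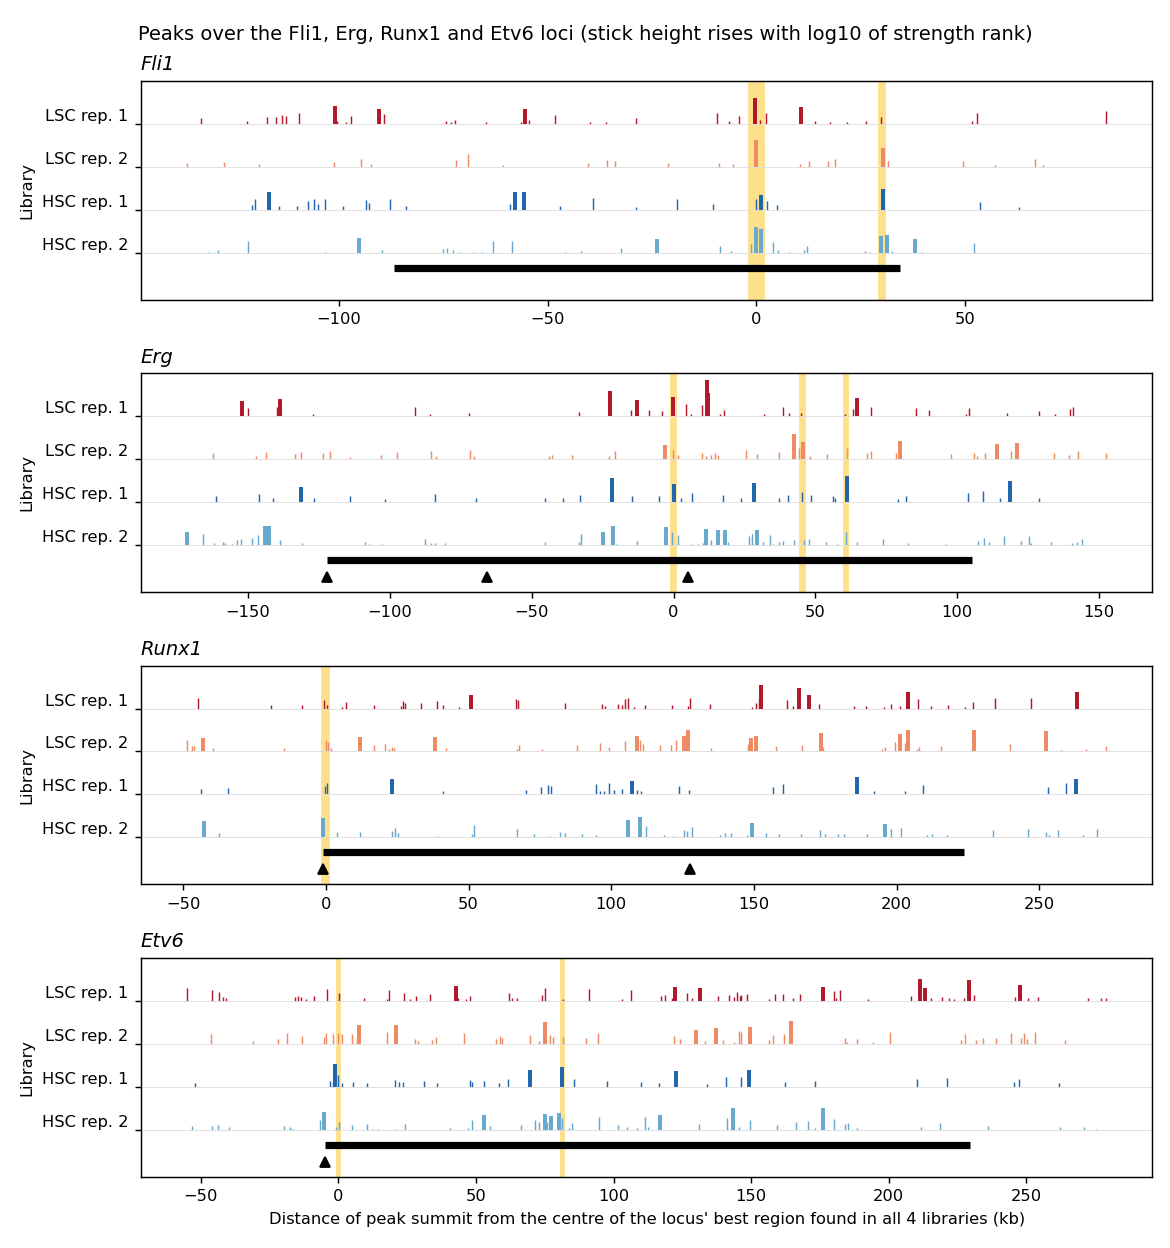
Peaks of each library (rows, LSC above HSC) along 4 loci, at the distance of the summit in kb from the centre of the locus' best region found in all 4 libraries; thick sticks are listed peaks, height rises with log10 of the strength rank, the black bar is the gene, triangles are annotated starts and bands are regions found in all 4 libraries. Most thick sticks stand at a place of their own, and the Fli1 band at 0 kb has a thick stick in all 4 libraries.

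The remaining regions found in all 4 libraries were weak in at least 1 of them. At Runx1 the region took in the distal start, chr16:92823863-92826249, at 50589 and 28164 in LSC against 30607 and 5886 in HSC. Its best summits were spread over 1517 bp. The rank of 30607 belongs to an HSC replicate 1 peak with its summit at 92824479, and the peak of that library at the start ranked 56543. Etv6 held chr6:134040147-134041001, 4.87 kb inside the gene, at 59488 and 32965 in LSC against 24571 and 61853 in HSC, so it was listed in none. Its other such region, chr6:134121560-134122438, ranked 194516 and 77451 in LSC against 4987 and 25615 in HSC. At Lmo2 the region lay in the flank at chr2:103944602-103946477, 12.4 kb beyond the end with the lower coordinate, at 15367 and 8902 in LSC against 45774 and 178747 in HSC. This Lmo2 region was listed in both LSC libraries and in neither HSC library, which still had peaks of lower rank there.

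**Figure D5:**
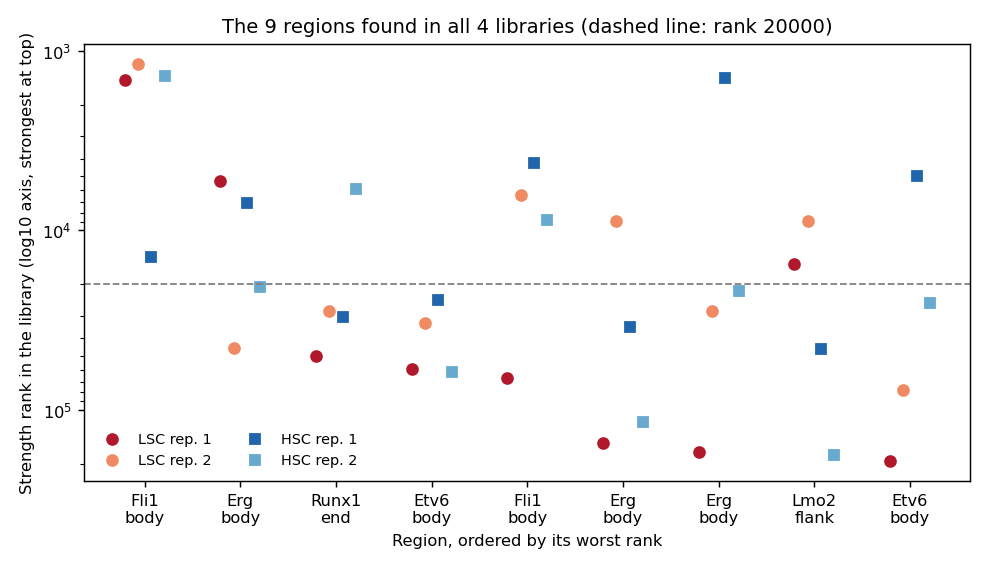
Strength rank of the best peak (y axis, log10 scale, strongest at the top) in each library for the 9 regions found in all 4 libraries, ordered by their worst rank, with LSC points left of HSC points and a dashed line at rank 20000. Only the Fli1 region at the far left stays above the line in all 4 libraries.

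Regions with a peak in both LSC and neither HSC library numbered 34 of 950, or 3.58%. This share was 2.10% in the loci of all coding genes and 1.88% over the genome. Regions with a peak in both HSC and neither LSC library numbered 21, or 2.21%, against 2.14% in those coding loci and 2.06% over the genome. Pairs sharing a replicate number gave 21 regions for replicate 1 and 43 for replicate 2, so the LSC count stood below that of the replicate 2 pair. Among the 721154 regions of the genome, the replicate 1 pair gave 9202 and the replicate 2 pair 25038. The LSC pair gave 13577 there and the HSC pair 14828. The replicate 2 pair was thus the largest over the genome too, and the raw counts do not rank the pairs against the genome. Runx1 held 8 of the 34 LSC regions, and Mecom, Fli1 and Etv6 held 5 each. Of the 21 HSC regions, Erg and Etv6 held 4 each and Fli1 and Runx1 3 each. The best ranked LSC region was at Runx1, chr16:92620831-92621524 inside the gene and 205 kb from the distal start, at ranks 10323 and 3416 with summits 46 bp apart. It was listed in both LSC libraries. Etv6 followed with the region just inside its start described above and with chr6:134057768-134059891, at 31826 and 27695. An Hlf region in the gene body, chr11:90347374-90348599, ranked 36480 and 9124 in LSC. In the HSC direction an Erg body region, chr16:95435920-95437067, ranked 5389 and 32180, and an Etv6 region, chr6:134093172-134093672, ranked 93628 and 15858 with summits 7 bp apart. An Erg flank region, chr16:95610430-95611277, ranked 59074 and 38845 in HSC, and a Fli1 body region, chr9:32449845-32450505, ranked 91120 and 24221. None of these HSC regions was listed in both HSC libraries.

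Enhancers named in the literature by their distance in kilobases from the gene start were read within 2 kb on either side of that distance. Of the 4 that could be placed, only Runx1 +23 held a listed peak, in HSC replicate 1 at rank 13184 with a fold of 28.2. At Runx1 +23, LSC replicate 1 had no peak, LSC replicate 2 had 4 with a best rank of 59089, and HSC replicate 2 had a best rank of 46399. The Gata2 +9.5 element, known to be required for stem cells to emerge, held peaks at 125893 in LSC replicate 1 and 48119 in LSC replicate 2. Neither HSC library had a peak there, and their nearest peaks were 6.80 and 5.72 kb away. The share of other windows of this size with such a split was not computed, so it is not read as a trait of the element. At Tal1 +19 ranks were 205057 and 158344 in LSC, against none in HSC replicate 1 and 236349 in HSC replicate 2. At Gfi1b +16 they were 85150 in LSC replicate 1 and none in LSC replicate 2, against 59361 and 200331 in HSC. Apart from the listed Runx1 peak, these elements had weak peaks within 2 kb or none, and placement by distance is approximate. No peak lay over a placed position itself, and the nearest was 0.022 kb away, at Runx1 +23 in LSC replicate 2. The Fli1 +12 element was not analysed here.

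Lmo2 encodes the LIM protein that bridges Tal1 and Gata factors, and lies at chr2:103957903-103981878. Peaks reaching its end windows were found in the LSC libraries, at rank 31136 in replicate 1 and 54251 in replicate 2, and neither was listed. HSC replicate 1 had a listed peak just past the window, at rank 16473, with its summit 1.49 kb from the lower gene end where that of LSC replicate 1 was 1.39 kb from it. Its strongest peaks were an LSC replicate 1 peak 1.71 kb beyond the end with the higher coordinate, at rank 2167, and an HSC replicate 1 peak inside the gene, at rank 3241. Mecom, whose product Evi1 keeps stem cells quiescent, lies at chr3:29951296-30509759 on the minus strand. At its outer start peaks ranked 116435 in LSC replicate 2 and 159173 in HSC replicate 1, and the inner start at 30013204 had no peak in any library. Its strongest peaks were in LSC replicate 1, at ranks 1690 and 1836, 20.5 and 90.1 kb inside the outer start, and neither place was listed in another library.

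Among the 22 other regulators, 5 and 5 were listed at a gene end in LSC replicates 1 and 2, against 2 and 4 in HSC replicates 1 and 2. That is 22.7% and 22.7% in LSC, where 11% and 25.5% of all coding genes were listed. In HSC it is 9.09% and 18.2%, where 10.6% and 25.1% were. Only in LSC replicate 1 did the regulators exceed the coding genes. Listed in all 4 libraries were 2 of the 22, or 9.09%, against 2.91% of coding genes. Tcf3, the E protein partner of Tal1, was listed in all 4 libraries at 8171 and 1053 in LSC and 9422 and 1776 in HSC. Nfe2, a bZIP factor of megakaryocytes, was listed in all 4 at 1271 and 967 in LSC and 85 and 2261 in HSC. Lyl1, the closest relative of Tal1, was listed in 3 libraries, at 7451 and 817 in LSC and 713 in HSC replicate 2, with HSC replicate 1 at 48613. Zfpm1, the Gata cofactor, was listed in 3 as well, at 2460 and 748 in LSC and 273 in HSC replicate 2, with HSC replicate 1 at 110838. Gfi1 and Cbfb were listed in 1 library each. The other 16, or 72.7%, were listed in none. A smaller share of the 22 than of all coding genes, at 39.9%, was thus listed in at least 1 library. No member was listed at an end in 3 or more libraries, where 8.83% of coding genes were. Etv6 alone was listed in at least 2, or 1 of 10 members against 20.5% of coding genes.

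Likeness of gene-end patterns was measured for the 2 members with an end peak in every library, as the summed absolute log2 ratio of best ranks over the 4 libraries, among 3409 genes with an end peak in all 4. Nearest to Runx1 were Skiv2l at 0.63 and Hspa13 at 1.05, and nearest to Gfi1b were Mad1l1 at 0.90 and Trim16 at 1.08. Skiv2l ranked 61357 and 27379 in LSC and 47586 and 6157 in HSC, where Runx1 ranked 50589 and 28164 in LSC and 56543 and 5886 in HSC.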

How the data were processed

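Ruvbl2 CUT&Tag was made, per the labels' protocols, from 2000 to 5000 sorted cells and 17 to 20 PCR cycles, in 2 LSC and 2 HSC libraries grouped by their titles. In all 4 the label for cell type is that of the HSC group. The labels name a goat anti-rabbit secondary antibody, no host for the Ruvbl2 antibody and no control library, so how far the peaks depend on that antibody was not tested. Per the submitters' processing notes, FastQC 0.11.5, Bowtie2 2.2.9, MACS2 and ChIPseeker were used with build mm10. Thresholds, read filters and the versions of MACS2 and ChIPseeker are not stated there. Peaks were called per library. The deposited columns were a whole-number score, the fold (a ratio of pileup to background), the −log10 p-value, the −log10 q-value, which was at least 5.07, and the summit position within the peak as the authors deposited it. All are the authors' values for a peak and served only to rank and filter within a library.

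Gene positions came from a RefSeq table of GRCm38.p6, which gives no exons, so introns were not separated from exons and "gene body" covers both. The 10 genes, the lists and the tests were chosen with earlier results of these data known. Within each library, peaks of autosomes 1 to 19 and the sex chromosomes were ranked by −log10 p and the 20000 strongest were listed. Peaks of equal −log10 p were ordered by position, so ranks of weak peaks are approximate. Regions are peaks of all 4 libraries merged at 1 bp overlap. The named regions were, per locus, the best ranked of those found in all 4 libraries, and the 4 best LSC-only and HSC-only ones, that is in both libraries of 1 cell type and neither of the other; further regions were named after their values were seen. The groups were compared with two-sided exact permutation tests over libraries (Python 3.11.15, pandas 2.3.3, numpy 2.4.6). Counting of planted genes was tested on simulated data. Alternatives were the 10000 or 40000 strongest or every peak, wider windows, summits in place of peaks, other flanks, ranking by fold, stricter overlap, leaving out each library, and a replicate block.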

Additional observations from a re-analysis of the deposited data

How the results depend on the processing

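The LSC minus HSC difference in listed peaks of the 10 loci was positive under each alternative, at 3 to 46.5 peaks (3.5 to 11.5 with a library left out). The 46.5 is for every deposited peak, where the groups overlapped and the exact permutation p was 1. The density ratio restates the listed count, except with every deposited peak, where totals differ between libraries and the difference was 0.30 at an exact permutation p of 0.333. Over its alternatives it was 0.30 to 0.69 (0.19 to 0.63 with a library left out). The difference in members listed at a gene end, -0.5, turned to 1 (exact permutation p = 0.667) with 40000 peaks and 2.5 (exact permutation p = 0.333) with every peak, and ran from -2 to 1 with a library left out, positive without HSC replicate 2; the cause was not tested. Under the replicate block the 3 differences were unchanged by construction, with exact permutation p of 1, 0.5 and 0.5. Deviations of same-numbered libraries correlated at 0.22 across 21883 genes, and with 2 pairs and no label of a shared batch the numbers were not taken as pairs. With every peak, 2 members had an end peak in all 4 libraries, and 2 (Tal1 and Lmo2) in both LSC and neither HSC, against 3.77% of coding genes. With a library left out, members listed in LSC only ran from 0 to 1 and in HSC only from 0 to 2. The 9 regions in all 4 libraries fell to 0, 1 and 1 with the 10000, 20000 and 40000 strongest peaks and 3 with summits within 200 bp, and ran from 15 to 36 with a library left out. The 34 LSC regions fell to 0, 2 and 5 with those list lengths and 22 with summits within 200 bp, and ran from 40 to 244 with a library left out. The 21 HSC regions fell to 1, 1 and 6, and ran from 32 to 227 with a library left out. Leaving a library out loosens these definitions by construction. Region counts thus rest on weak peaks, 2 libraries per group limit every comparison to an exact permutation p of at least 0.333, and the depth behind the peaks is unknown.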
